A study of Mus musculus with 11 samples.

Results

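The genomic regions described here were called by CUT&RUN in mouse embryoid bodies labelled as double knockout (DKO) for Wdr5 and p53, with an antibody against WDR5 or against P53, the proteins these cells are labelled as lacking. The 4 DKO peak lists, 2 for WDR5 and 2 for P53, were merged wherever peaks shared at least 1 base on chromosomes 1 to 19, X and Y, which gave 334 regions, against 12028 regions when all 11 lists of the study were merged. Each region was assigned to 1 of 3 classes, called with WDR5 only, with P53 only or with both antibodies. Peaks on the mitochondrial genome, chrM, were kept apart. DKO cells also had 1 list for H3K4me3, trimethylated lysine 4 of histone H3. For comparison, Wdr5 knockout (KO) cells had 1 H3K4me3 list, and wild type (WT) cells had 2 WDR5 lists, 2 P53 lists and 1 H3K4me3 list. Every group came from embryonic stem cells with a GFP knock-in at Rx, differentiated with SFEBq in GMEM with 5% KSR, collected at day 2, with doxycycline withdrawn at day 0 and 2% matrigel present from day 1. Each reaction used 2 µg of antibody on 2 M (mega) cells. The labels do not say which part of each gene was deleted, how the deletions were made or how many clones were used.

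CUT&RUN holds an antibody on chromatin in permeable cells and lets a tethered nuclease release the DNA beside it. WDR5 is a scaffold of the MLL and SET1 complexes, which methylate histone H3 at active promoters, and P53 is a transcription factor of the DNA damage response. A library made without the antibody's target still gives fragments: open promoters are easy to cut, repeats that the assembly holds in too few copies collect fragments from every copy, and mitochondrial DNA carries no nucleosomes. These are general properties of the assay and were not tested as causes here.

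The DKO WDR5 lists rested on 36.4 M and 33.7 M fragments and the DKO P53 lists on 32.8 M and 57.5 M. The WT WDR5 and P53 lists rested on 23.9 M to 26.6 M fragments, so the DKO lists were the deeper ones. Lists of 1 antibody were not shown to be separate libraries. In DKO WDR5, 125 of 160 overlapping peaks of lists 1 and 2 had the same summit base (78.1%), and in DKO P53, 19 of 92 did (20.7%). Both lists numbered 2 came from an alignment that their headers call merged. Values are therefore given for each list, no p-value is given, and the 95% intervals of shares (Wilson) and of differences (Newcombe) cover counting error only. Neither DKO antibody had a peak closer than 10 kb to Wdr5 or to Trp53, which does not check the deletions. As a check of the cell type, DKO H3K4me3 peaks lay within 1 kb of an end of 6 of 6 markers of pluripotent and epiblast cells, among them Pou5f1, Sox2 and Otx2, and of 0 of 6 anterior neural, 0 of 6 mesoderm and endoderm and 0 of 4 fibroblast feeder markers, against 22.8% of all 21887 protein-coding genes.

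WDR5 only regions were set apart from both other classes by lying at promoters, and 4 promoters show the range of sequence involved. They are the 250 bases before the transcription start in RefSeq (GRCm38.p6, the assembly of mm10), 5′ to 3′. Gys1 was given by the rule for named genes, and the other 3 were chosen after their values were seen. In the first 3, each partly under a WDR5 only region, capitals mark CG dinucleotides. The region covers 127 of the 250 bases at Gys1, 92 at Cic and 65 at Opa3. In the last, which a P53 only region covers whole, capitals mark the run of 55 bases that also occurs in the promoter of Gm597. Counts given below are over all 250 bases, also those outside the region.
Gys1, chr7:45434589-45434838, plus strand: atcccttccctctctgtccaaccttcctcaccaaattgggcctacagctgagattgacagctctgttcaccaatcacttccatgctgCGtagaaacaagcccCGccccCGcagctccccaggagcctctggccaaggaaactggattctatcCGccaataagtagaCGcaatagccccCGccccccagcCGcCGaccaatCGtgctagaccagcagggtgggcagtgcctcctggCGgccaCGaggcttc
Cic, chr7:25267449-25267698, plus strand: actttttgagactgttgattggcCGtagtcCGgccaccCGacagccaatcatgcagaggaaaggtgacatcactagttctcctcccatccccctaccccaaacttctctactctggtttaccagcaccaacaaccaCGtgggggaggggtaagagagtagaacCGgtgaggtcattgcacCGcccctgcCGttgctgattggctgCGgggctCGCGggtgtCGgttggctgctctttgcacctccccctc
Opa3, chr7:19228139-19228388, plus strand: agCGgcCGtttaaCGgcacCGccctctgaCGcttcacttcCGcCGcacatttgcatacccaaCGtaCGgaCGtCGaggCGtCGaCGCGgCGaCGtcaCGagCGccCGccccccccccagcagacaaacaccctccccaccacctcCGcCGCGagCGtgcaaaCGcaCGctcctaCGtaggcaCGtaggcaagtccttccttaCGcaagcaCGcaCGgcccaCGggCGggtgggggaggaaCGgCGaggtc
4931408C20Rik, chr1:26687461-26687710, minus strand: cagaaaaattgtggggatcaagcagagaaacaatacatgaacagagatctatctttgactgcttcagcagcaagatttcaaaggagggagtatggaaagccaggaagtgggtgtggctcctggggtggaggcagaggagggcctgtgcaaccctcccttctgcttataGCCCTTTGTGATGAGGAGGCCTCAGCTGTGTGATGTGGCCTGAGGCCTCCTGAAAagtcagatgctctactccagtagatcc
The Gys1 and Cic stretches hold 11 CG dinucleotides each and the Opa3 stretch 35, whereas the 4931408C20Rik stretch holds 0. Gys1 (muscle glycogen synthase) has 4 CCAAT boxes and 2 GC boxes in this stretch on either strand, and Cic (the transcriptional repressor Capicua) has 3 and 1. Opa3, which encodes a mitochondrial protein, has 0 CCAAT boxes and 3 GC boxes.

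Of the 334 regions, 149 were called with WDR5 only (44.6%, interval 39.4 to 49.97), 105 with P53 only (31.4%, 26.7 to 36.6) and 80 with both (24.0%, 19.7 to 28.8). The DKO WDR5 lists held 226 and 166 nuclear peaks and the DKO P53 lists 99 and 179, so the longer P53 list lay between the 2 WDR5 lists in length. Of the WDR5 only regions, 87 were in both lists, 59 in list 1 alone and 3 in list 2 alone. Of the P53 only regions, 24 were in both lists, 7 in list 1 alone and 74 in list 2 alone, the deepest of the 4. Without DKO P53 list 2 the P53 only class fell to 31 regions, and without DKO WDR5 list 1 the WDR5 only class fell to 91. With every DKO list held to its 99 peaks of highest -log10 q the order of these classes turned, with 46 WDR5 only and 62 P53 only regions. Of the regions called with both antibodies, 59 were in all 4 lists, 15 in 3 and 6 in 2.

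**Figure D1:**
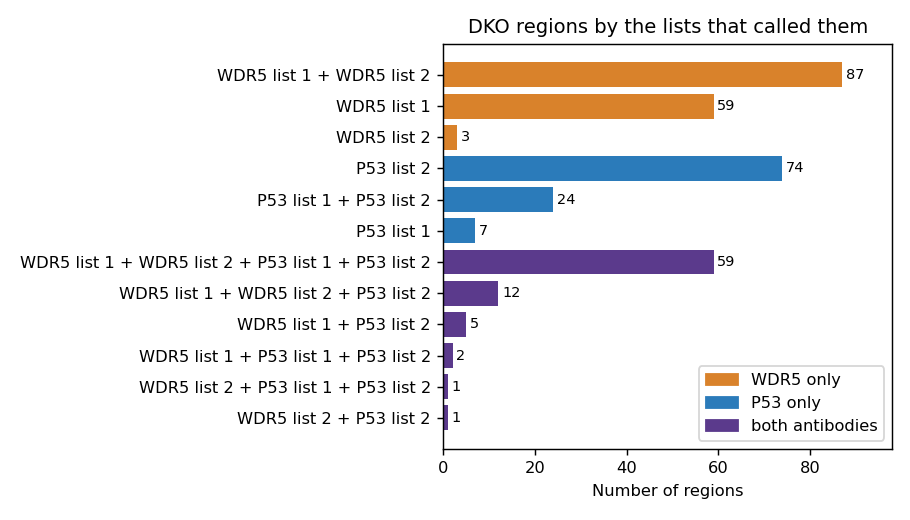
Number of DKO regions (x axis) for each combination of the 4 DKO lists that called them (y axis), coloured by class. WDR5 only regions were mostly in both WDR5 lists (87), P53 only regions mostly in P53 list 2 alone (74), and regions of both antibodies mostly in all 4 lists (59).

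Regions called with both antibodies were wider, with a median of 462.5 bases, against 245 bases for WDR5 only and 261 for P53 only. They were also the higher ones. Both orders are partly given by how the classes were made. A region of both antibodies merges peaks of up to 4 lists, and a region of 1 antibody those of up to 2. To enter the class of both antibodies, a region must also pass the calling limit with each of them. Fold enrichment is the authors' ratio of the pileup, the number of fragments over the summit, to the background that MACS estimated around it. It reached at least 10 in any DKO list in 29 regions, of which 6 were WDR5 only, 0 P53 only and 23 were called with both. The median fold enrichment of WDR5 only regions was 4.77 and 4.83 in WDR5 lists 1 and 2, and that of P53 only regions was 4.81 and 3.97 in P53 lists 1 and 2. In the regions of both antibodies it was 5.71 and 6.13 in the WDR5 lists and 6.45 and 5.39 in the P53 lists. In each list the median was thus higher in regions of both antibodies, which also held most of the high regions. The median pileup per M fragments in the WDR5 lists was 1.59 and 1.81 in these regions, against 0.632 and 0.653 in WDR5 only. In the P53 lists it was 2.13 and 1.52, against 0.701 and 0.574 in P53 only.

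WDR5 only regions lay at promoters. A RefSeq transcription start lay within 1 kb of 98 of the 149 (65.8%), against 4 of 105 P53 only regions (3.81%) and 1 of 80 regions of both antibodies (1.25%). The same window around all starts covers 2.05% of bases. WDR5 only exceeded P53 only by 62.0 percentage points (52.3 to 69.5). A DKO H3K4me3 peak overlapped 52 WDR5 only regions (34.9%); these regions touched 0.81% of all DKO H3K4me3 peaks and 1.2% of all KO H3K4me3 peaks. Of the 52, 44 also lay at an end of a protein-coding gene. In KO, whose H3K4me3 list held 918 peaks, 7.38% of WDR5 only regions had one, and in WT, with 9836 peaks, 59.7% had one. The 565 WT regions of WDR5 alone that no DKO region overlapped had a start at 58.2%, which was not resolved from WDR5 only in DKO (difference 7.54 points, -1.34 to 15.8). A DKO H3K4me3 peak lay on 21.1% of those 565, 13.8 points fewer than in WDR5 only regions (5.82 to 22.4).

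**Figure D2:**
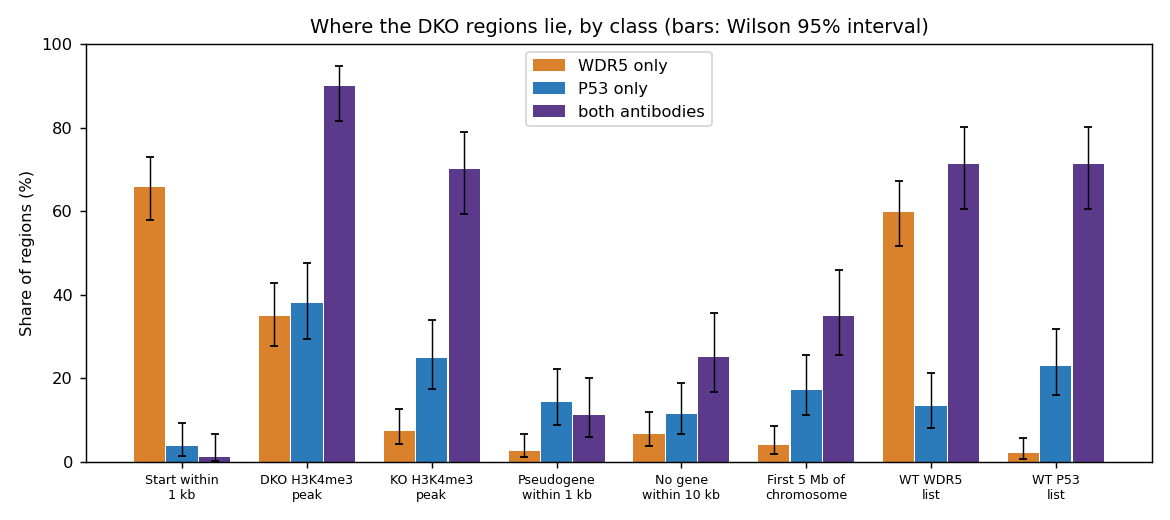
Share of regions in % (y axis) with each feature (x axis) for WDR5 only (n = 149), P53 only (n = 105) and both antibodies (n = 80), with Wilson 95% intervals as black lines. Transcription starts lay at 65.8% of WDR5 only regions and at 3.81% and 1.25% of the other classes, while a DKO H3K4me3 peak lay on 90.0% of regions of both antibodies.

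The 10 highest WDR5 only regions were of mixed kind. The highest lay inside Chl1, which encodes a neural adhesion molecule of the L1 family (chromosome 6, 103648799 to 103649292), at 43.7 and 39.1 in the WDR5 lists. It was in neither DKO P53 list, although both WT P53 lists had it at 38.5 and 34.5. The WT WDR5 lists had it at 42.5 and 38.2, and the H3K4me3 lists at 34.4 in DKO and 33.6 in WT but not in KO. A region on chromosome 12 from 3109878 to 3110475, with no gene within 10 kb, had 34.4 in DKO WDR5 list 2 and 32.2 in WT WDR5 list 2 and was in none of the other 9 lists. Jarid2, a subunit that guides the Polycomb complex PRC2, had 15.1 and 12.6 inside the gene. Camta1, a calmodulin-binding transcription activator, had 11.1 and 9.96 inside the gene. The region at Ruvbl2 and Gys1 (chromosome 7, 45434373 to 45434715) had 7.21 and 7.50 and covers the start of Ruvbl2, an ATPase of chromatin remodelling complexes, which runs away from Gys1. Dlg4, a postsynaptic scaffold, had 7.45 and 6.78. The others were at pseudogene Gm10222 on chromosome 1, and between genes on chromosome 6 (3201214 to 3201530) at 16.2 and 14.8, on chromosome 2 (181929054 to 181929282) at 7.90 and 7.76, and on chromosome 17 (53152490 to 53152876) at 7.52 in list 2.

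WDR5 only regions at starts with DKO H3K4me3 form a further group. In 28 WDR5 only regions, both WDR5 lists had the region, a start lay within 1 kb and a DKO H3K4me3 peak overlapped; the members named next were chosen after their values were seen. Usp5, a deubiquitinase beside the cell cycle gene Cdca3, had 7.40 and 6.60. Cic had 6.75 and 6.68, Anapc15, a subunit of the anaphase-promoting complex, had 6.81 and 6.35, and Ctps, the CTP synthase, had 5.28 and 4.73. Chromatin genes among them were Ing2, a reader of methylated H3K4, at 4.98 and 4.62, Kdm4a, a histone demethylase, at 4.83 and 4.47, and Kat7, a histone acetyltransferase, at 4.80 and 4.70. Several lay at the starts of paired genes, such as Septin2 and Hdlbp, Mau2 and Sugp1, Acd and Pard6a, or Arv1 and Ttc13. Over all 98 WDR5 only regions with a start, 27 (27.6%, 19.7 to 37.1) had 2 divergent genes starting within 1 kb of each other, against 20.4% (19.2 to 21.6) of 4503 DKO H3K4me3 peaks with a start. The interval of the first share includes the second.

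The promoters under WDR5 only regions were rich in CG. Of 32851 promoter windows of 300 bases (250 before and 50 after each start), 103 windows of 89 genes overlapped a WDR5 only region. They held a median of 21 CG dinucleotides and 60.3% G and C, against 7 and 52.7% in all windows, and the windows under DKO H3K4me3 peaks had the same 21 and 60.3%. Motifs were searched on both strands. The GC box GGGCGG was in 76.7% of the 103 windows, against 59.2% of 1894 windows under DKO H3K4me3 peaks and 35.7% of all. The inverted CCAAT box ATTGG was in 62.1%, against 40.5% and 37.4%. The ETS core CCGGAA was in 25.2%, against 39.8% under DKO H3K4me3 peaks and 14.9% of all. TATAAA was in 0 of the 103, against 5.81% and 13.6%. CACGTG was in 13.6%, against 10.1% and 7.15%. Windows of paired or alternative starts overlap, so they are not independent, and none of these shares was tested.

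As a stand-in for repeats, promoter windows that share a run of at least 50 bases with a window elsewhere were counted. There were 0 among the 103 windows under WDR5 only regions, 1 among the 5 under P53 only regions, namely 4931408C20Rik shown above, and 0 in the 1 window under a region of both antibodies. The share over all windows was 7.84%, and that over windows under DKO H3K4me3 peaks was 1.37% (26 of 1894). The interval of the 0 of 103 (0 to 3.60%) includes the latter. Repeat content of the regions themselves was not analysed here, since no sequence of the genome was used.

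P53 only regions lay away from promoters. A DKO H3K4me3 peak overlapped 40 of the 105 (38.1%), 0.623% of all DKO H3K4me3 peaks, and the KO list likewise gave 26, 2.83% of all KO peaks. The share on DKO H3K4me3 peaks was not resolved from that of WDR5 only (WDR5 only minus P53 only, -3.20 points, -15.2 to 8.60). Of the 40, 1 lay at the end of a protein-coding gene, against 44 of the 52 for WDR5 only. Pseudogenes lay within 1 kb of 14.3% of P53 only regions, 11.25% of regions of both antibodies and 2.68% of WDR5 only regions. The window around pseudogenes covers 1.94% of bases. P53 only was not resolved from both antibodies here (both minus P53 only, -3.04 points, -12.5 to 7.28). Some of these P53 only regions share 1 pseudogene, such as Gm7281 or Vmn2r-ps16, so they are not separate loci. Of the 305 WT regions of P53 alone that no DKO region overlapped, 2.30% had a DKO H3K4me3 peak, so P53 only regions exceeded them by 35.8 points (26.8 to 45.4). The highest folds were in list 2 at 7.50, on chromosome 8 from 20379499 to 20379734 beside pseudogene Gm7807, and inside Ncoa1, a nuclear receptor coactivator (chromosome 12, 4357128 to 4357537), at 7.12 and 6.42. Others among the 10 highest were beside Zfp958, a zinc finger gene, at 6.68 and 5.22, and inside Cenpp, a centromere protein gene, at 6.41 and 5.74, and Muc6, a secreted mucin, at 6.26 in list 2. Kctd16, a subunit of GABA-B receptors, had 5.62 and 6.91 inside the gene. A region 4889 bases from the cytochrome P450 gene Cyp2b23 had 6.48 and 6.70 and was in all 7 other lists. The remaining 3 were in list 2 alone among the DKO lists, at 6.39 and 6.18 on chromosome 8 (20520346 to 20520632 and 20813998 to 20814389) and at 6.18 in Gm3248 on chromosome 14. In 39 of the 105 (37.1%) no other list of the study had a peak, against 25 of 149 WDR5 only regions (16.8%) and 2 of 80 of both antibodies (2.50%).

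Regions of both antibodies were called in most other libraries too. A DKO H3K4me3 peak overlapped 72 of the 80 (90.0%, 81.5 to 94.8), although DKO H3K4me3 peaks cover 0.118% of bases, and a KO H3K4me3 peak overlapped 56 (70.0%), although KO peaks cover 0.0154%. The share on DKO H3K4me3 peaks exceeded that of WDR5 only by 55.1 points (43.5 to 63.8) and that of P53 only by 51.9 points (39.1 to 61.9). WT WDR5 and WT P53 lists each had 71.3% of them, and 36 of 80 were in all 7 other lists, against 0 of 149 WDR5 only regions and 1 of 105 P53 only regions. As given above, a start lay within 1 kb of 1 of the 80, so most of these H3K4me3 peaks lay away from annotated promoters. From the side of the H3K4me3 lists, 10.3% of the 918 KO peaks and 2.59% of the 6418 DKO peaks overlapped a DKO region of any class, of which the shared class made up 6.43% and 1.15% of all peaks.

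They also lay in groups. Another DKO region was within 50 kb of 73.8% of them, against 14.8% of WDR5 only and 46.7% of P53 only regions. The first 5 Mb of a chromosome, next to the centromere in the mouse, held 35.0% of them, against 4.03% of WDR5 only and 17.1% of P53 only regions. These stretches make up 3.86% of bases, counted whole, with no allowance for bases where no peak can be called. Of the 52 regions of any class in them, 28 were on chromosome 11 and 13 on chromosome 9. The share thus rests largely on the arrays of these chromosomes given below, not on chromosome starts in general. Linking regions less than 500 kb apart gave 6 arrays of at least 5 regions, which held 109 regions: 19 WDR5 only (12.8%), 47 P53 only (44.8%) and 43 of both antibodies (53.8%). The arrays of chromosome 4 (145408844 to 147519527) and chromosome 11 (3101431 to 3199894) had 28 regions each. The one on chromosome 4 runs through zinc finger genes such as Zfp990, Zfp600 and Rex2 and holds 48 pseudogenes among 69 genes, with 3 WDR5 only, 15 P53 only and 10 shared regions. The one on chromosome 11 lies on Sfi1, a centrosome gene, and its neighbour Pisd-ps1, with 3, 13 and 12. At the start of chromosome 9 (3000024 to 3038196), 12 of 13 regions were shared and no gene was annotated. On chromosome 8 (19707273 to 21019586), an array in a defensin gene area had 2, 6 and 7. On chromosome 1 (85086425 to 85614843), an array at Sp110 and Sp140, nuclear body genes, had 0, 9 and 2. The sixth, on chromosome 8 from 69625323 to 71671331, was of another kind, with 93 protein-coding genes, 11 WDR5 only, 3 P53 only and 0 shared regions.

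Over the regions in all 4 lists the folds of the 2 antibodies rose together, and neither antibody was the higher in most of them. Over the 59 regions in all 4 lists, both WDR5 lists were above both P53 lists in 24, both P53 lists were above both WDR5 lists in 24, and the lists overlapped in 11. Lists of 1 antibody were not shown to be separate libraries, so such an order can hold at a small gap. The region on Gm33838 counts as higher with WDR5 at 28.0 and 27.5, against 27.3 and 27.4 with P53. The median ratio of the mean WDR5 fold to the mean P53 fold was 0.998, and Spearman's rho of the means was 0.918 across the 59 regions, which share library and local background and are a description only. Summits were close but rarely identical: DKO WDR5 list 1 and DKO P53 list 1 had 3 of 63 on the same base and 36 within 50 bases (57.1%).

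**Figure D3:**
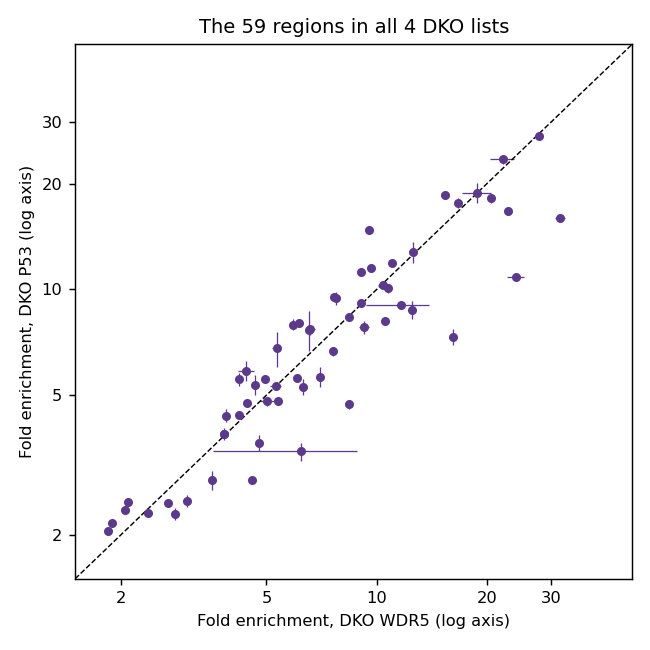
Mean fold enrichment of the 2 DKO WDR5 lists (x axis) against that of the 2 DKO P53 lists (y axis), both log axes, for the 59 regions in all 4 lists, with lines from the lower to the higher list. Points lie on both sides of the dashed line of equal values (median ratio 0.998, range 0.646 to 2.21). Lars2 lies below it at 32.7 and 30.8 in the WDR5 lists against 15.8 and 16.2 in the P53 lists.

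The highest shared region was near an end of Lars2, the mitochondrial leucyl-tRNA synthetase (chromosome 9, 123461803 to 123462169), with 32.7 and 30.8 in the WDR5 lists and 15.8 and 16.2 in the P53 lists. A region on the noncoding gene Gm33838 (chromosome 9, 35305230 to 35305578) had 28.0 and 27.5 in the WDR5 lists and 27.3 and 27.4 in the P53 lists. These 2 regions differed, with unequal folds at Lars2 and nearly equal ones at Gm33838. Lars2 kept that order in WT, at 34.5 and 32.9 with WDR5 and 12.4 and 12.1 with P53. The region inside Cmss1 and Filip1l on chromosome 16 had 25.2 and 22.8 in the WDR5 lists and 10.97 and 10.69 in the P53 lists. In all, 6 regions had a ratio above 1.5, the largest 2.21, and 1 had a ratio below its inverse, on chromosome 8 from 20321440 to 20321800, at 9.44 and 9.64 in the WDR5 lists and 15.1 and 14.4 in the P53 lists. Others of the 10 highest lay in Aida, an axin interactor (20.5 and 20.6 in the WDR5 lists, 17.7 and 18.7 in the P53 lists), and in Apool, a protein of mitochondrial cristae (15.8 and 15.0 in the WDR5 lists, 18.1 and 18.97 in the P53 lists). The noncoding gene Gm36876 on chromosome 11 had 16.5 and 15.9 in the WDR5 lists and 6.96 and 7.70 in the P53 lists. With no gene within 10 kb, a region on chromosome 3 (5860384 to 5860774) had 23.2 and 22.5 in the WDR5 lists and 16.5 and 17.1 in the P53 lists. Likewise one on chromosome 14 (19416915 to 19417386) had 20.5 and 17.1 in the WDR5 lists and 20.03 and 17.7 in the P53 lists, and one on chromosome 15 (75086315 to 75086988) had 16.7 and 16.6 in the WDR5 lists and 18.3 and 17.03 in the P53 lists. The region on chromosome 2 from 98666307 to 98667329, with no gene within 10 kb, had the highest pileup, 9652 and 6850 fragments in the WDR5 lists and 10330 and 12001 in the P53 lists.

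WDR5 only regions recurred in WT with WDR5 and rarely with P53, while P53 only regions recurred less often and with either antibody. Of the 149 WDR5 only regions, 89 (59.7%) were in a WT WDR5 list and 3 (2.01%) in a WT P53 list. Of the 105 P53 only regions, 24 (22.9%) were in a WT P53 list and 14 (13.3%) in a WT WDR5 list. At the 89, the median fold over regions was 4.77 in DKO and 5.70 in WT, and DKO was below WT in 60. At the 24, it was 4.16 in DKO and 6.68 in WT, and DKO was below WT in 22. At the regions of both antibodies it was 6.99 in DKO and 7.28 in WT with WDR5, and 5.86 in DKO and 5.47 in WT with P53, over 57 regions each. Each fold is relative to its own library, so these differences between genotypes were not tested.

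**Figure D4:**
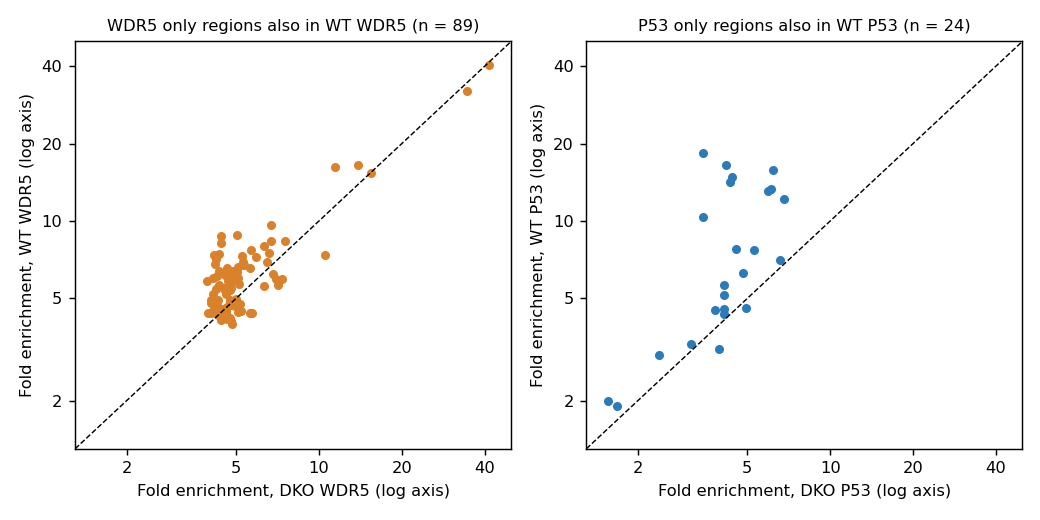
Mean fold enrichment in DKO (x axis) against WT (y axis), both log axes, for WDR5 only regions that a WT WDR5 list also had (left, n = 89) and P53 only regions that a WT P53 list also had (right, n = 24), with the line of equal values dashed. Points lie mostly above the line in both panels, with DKO below WT in 60 of 89 WDR5 only and 22 of 24 P53 only regions.

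Among the P53 only regions, 19 were in both WT P53 lists and in no WT WDR5 list, and 9 of these 19 had no H3K4me3 peak in any genotype. All 9 were lower in DKO than in WT. The region 3062 bases from Bst2, which encodes the antiviral protein tetherin, had 4.20 in DKO P53 list 2, against 17.5 and 15.6 in WT P53. Cd302, a lectin receptor gene, had 4.41 in DKO list 2, against 15.0 and 14.6 in WT. Glipr2 had 4.31, against 14.6 and 13.7 in WT. The 3 of the 9 that both DKO lists held were Ncoa1 at 7.12 and 6.42, against 12.6 and 11.7 in WT, Cenpp at 6.41 and 5.74, against 14.0 and 12.6, and Zfp958 at 6.68 and 5.22, against 13.5 and 12.8. The others were in Gm29721, 3622 bases from pseudogene Gm21461, and on chromosome 8 from 88950275 to 88950470. These 9 were picked out after their values were seen.

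Fixed gene sets were hardly touched. A DKO region of any class lay within 1 kb of an end of 147 of 21887 protein-coding genes (0.672%), 138 of them WDR5 only (0.631%), 5 P53 only (0.0228%) and 5 of both antibodies (0.0228%). The counts were 0 of 86 ribosomal protein genes, 0 of 25 p53 target genes, 0 of 87 histone genes and 0 of 18 MLL and SET1 complex genes, and with 0.672% of all genes at a region, 0 is near the background for lists of this size. Of 71 translation factor genes 1 had a region, Eif2s2, a subunit of initiation factor 2, in WDR5 list 1 alone at 4.17. H3K4me3 was called in DKO at 66 of the 86 ribosomal protein genes and 11 of the 25 p53 target genes, where 22.8% of all protein-coding genes had such a peak.

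On chrM, every DKO list had peaks, but with unequal height. Shares of chrM were taken over its bases up to 16162, the last base annotated or called. The 3 DKO WDR5 peaks of each list covered 68.6% and 68.5% of these bases, and the 4 and 3 DKO P53 peaks 61.4% and 63.5%. The highest pileup was 4083 and 3142 fragments in the WDR5 lists, against 441 and 777 in the P53 lists. Per M fragments of each list that is 112 and 93.3 with WDR5 and 13.4 and 13.5 with P53, a ratio of means of 7.62 (8.35 for lists 1 and 6.90 for lists 2). In WT it was 146 and 117 with WDR5 and 22.8 and 22.04 with P53, a ratio of 5.87. The H3K4me3 lists had 14.6 in DKO, 13.7 in KO and 14.4 in WT, near the DKO P53 lists and below the WT P53 lists. Fold enrichment on chrM was 2.03 to 3.30 in the 4 DKO lists, since its own fragments are the local background, so the fold does not carry the difference in height. Summits of the first peak lay in ND2, a subunit of complex I, in all 4 DKO lists. A stretch from base 6476 to 10907, which holds COX2, ATP8, ATP6, COX3, ND3 and ND4L whole, was in no peak of any of the 11 lists.

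**Figure D5:**
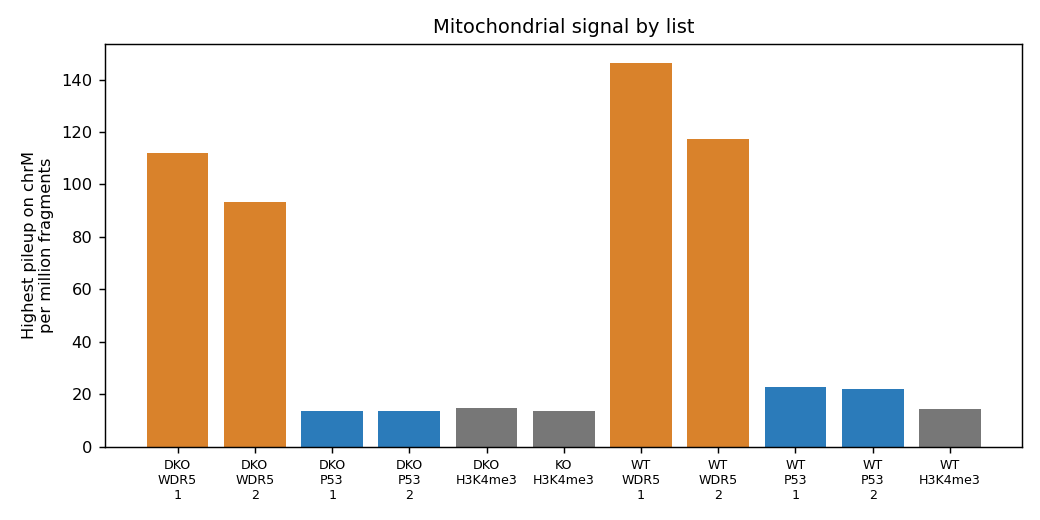
Highest pileup on the mitochondrial genome per M fragments (y axis) in each of the 11 lists (x axis), coloured by antibody. DKO WDR5 lists had 112 and 93.3, against 13.4 and 13.5 in DKO P53, and the WT WDR5 and WT P53 lists kept that order.

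Nuclear copies of mitochondrial DNA could be followed at 1 annotated place. The gene table names a single nuclear pseudogene of a mitochondrial gene, Gm10925, a copy of Atp6 on chromosome 1 from 24613971 to 24614651. A WDR5 only region lay 1150 bases from it, on the neighbouring pseudogene Gm10222 (24612609 to 24612820), at 11.4 and 11.5 in the DKO WDR5 lists. It was also in both WT WDR5 lists at 16.9 and 15.4. An H3K4me3 peak overlapped it in DKO, KO and WT at 28.3, 15.5 and 22.9, with its summit at base 24613117, outside the region. None of the 4 P53 lists had it. On chrM, too, WDR5 was above P53, there by pileup per M fragments. In that measure the region had 1.40 and 1.42 in the DKO WDR5 lists, and the overlapping DKO H3K4me3 peak had 4.56. On chrM H3K4me3 was instead below WDR5. The highest pileup on chrM and a nuclear peak are unlike measures, and whether the region holds mitochondrial sequence was not tested. Unannotated copies were not analysed here.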

How the data were processed

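WDR5, P53 and H3K4me3 peak lists of 11 libraries were used. Per the file headers, the authors ran MACS on paired-end alignments with no control (version 2.1.2 for WDR5 and P53 lists 1, version 2.1.0.20150731 for the rest). Peaks passed q = 0.01 over a background from 10 kb windows, and a position kept up to 2 fragments. The submitters' processing notes name Bowtie2, SAMtools 1.5, bedtools, MACS2 2.1.0, HOMER 4.10 and mm10. The deposited pileup is a coverage signal, not scaled to depth. The deposited -log10 p and q values and the fold enrichment ratio belong to each peak and were used within a list.

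Peaks were merged at 1 base of overlap in Python 3.11.15 with pandas 2.3.3, and the merging was tested on simulated data. Gene spans, promoter windows and starts came from RefSeq tables of GRCm38.p6, whose starts and arrays were taken up after the files were seen. The rule for named items took the 10 regions of highest fold in each class, the chrM peaks, which the text summarises by list, and gene list members with a region. Members and lists were chosen with earlier results of these data known. Lists were grouped by their labels, and no test was read. The planned permutation test of 2 against 2 lists cannot go below p = 0.333.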

Additional observations from a re-analysis of the deposited data

How the results depend on the processing

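Merging peaks within 500 bases, or asking for an overlap of 50% of the shorter peak, moved no count or share beyond its limit (a factor of 1.5 for counts, the 95% interval for shares). With -log10 q of at least 5, the share of P53 only regions in WT lists was 44.0%. With a fold of at least 5 there were 67 WDR5 only, 33 P53 only and 40 shared regions, DKO H3K4me3 lay on 97.5% of the shared ones, gene ends at 59.7% of WDR5 only, and WT lists had 68.7% of WDR5 only and 45.5% of P53 only. Asking for both lists of an antibody gave 99 WDR5 only and 27 P53 only regions and 31.9% shared, with 94.9% of shared and 44.4% of P53 only regions in WT lists. Lists of equal length (99 peaks) gave 46 WDR5 only and 62 P53 only regions and 35.7% shared, so the order of these classes turned, with gene ends at 54.3% of WDR5 only and WT lists at 91.7% of shared regions. Without the 6 arrays, chosen after seeing the data, there were 58 P53 only and 37 shared regions (16.4% shared), with DKO H3K4me3 on 27.6% of P53 only and WT lists at 89.2% of shared.

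WT H3K4me3 in place of DKO lay on 59.7% of WDR5 only regions, and KO H3K4me3 on 7.38% of WDR5 only, 24.8% of P53 only and 70.0% of shared. Within 5 kb of a gene end were 78.5% of WDR5 only, 24.8% of P53 only and 21.3% of shared regions, and an end lay inside 12.1%, 1.90% and 1.25%. A start in place of an end gave 1.25% for shared regions.

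Leaving out 1 list at a time gave 91 (without DKO WDR5 list 1) to 167 WDR5 only and 31 (without DKO P53 list 2) to 112 P53 only regions. Over the same lists, WT lists had 81.3% to 95.2% of shared and 56.9% to 70.3% of WDR5 only regions, and DKO H3K4me3 lay on 25.8% to 41.1% of P53 only. The log2 ratio of mean peak number, DKO WDR5 over DKO P53, was 0.50, with 0.13 to 0.99 on leaving out a list, the highest without DKO P53 list 2, and 0.54 with the list number as a replicate block. The list numbers were not shown to pair libraries. Where a cause is not given by the alternative's own construction, the cause was not tested. In all, 40 of 169 recomputed values moved beyond their limit, and the log2 ratio kept its sign. The alternative on alignment length of mitochondrial or repeat sequence was not run, as no genome was used. The peaks were called with no control library, and the part of depth in the class sizes was not tested beyond lists of equal length.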

Other observations

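A region on Rn18s-rs5, a ribosomal RNA gene copy on chromosome 17 (39846191 to 39848656), had a fold enrichment of 4.63 and 4.50 in the DKO WDR5 lists and 2.90 and 2.82 in the DKO P53 lists, and all 7 other lists had it. A second region 363 bases from that gene (39843118 to 39845990) had 3.59 and 3.52 with WDR5 and 2.69 and 3.04 with P53. On chromosome X, a region 5880 bases from the pseudogene Erdr1 (170004212 to 170004645) had 9.66 and 9.64 with WDR5 and 11.7 and 11.3 with P53. On chromosome Y, the noncoding gene Gm33272 held 2 regions, each in all 4 DKO lists. At Duxf3, a double homeobox gene of an array on chromosome 10, a region was called in DKO P53 list 2 alone, at 5.29, and in the 3 H3K4me3 lists at 4.78 in DKO, 5.27 in KO and 5.11 in WT. These loci were chosen after their values were seen.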
